A study of Mus musculus with 8 samples.

Results

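The genes described here are 32 mouse genes of sugar metabolism: glucose transporters, the enzymes of glycolysis, the lactate and pyruvate branch, the pentose phosphate pathway, and the first steps from glucose phosphate to glycogen. They were taken by gene symbol from the expression table of the series, in which they fill 33 of 55157 rows, because Aldoa is listed under 2 gene identifiers. Of the 33 entries, 30 had a mean of at least 1 FPKM (sequenced fragments divided by a gene's exon length and by the library's total) over all 8 libraries and were tested among 14738 genes. Slc2a3, Slc2a4 and Eno2 were below that level and are given with their values only. RNA came from ovarian follicles of the morphological class called type 7-8, taken from Kunming mice, an outbred stock, at postnatal day 21. The 4 melatonin samples were collected 24 hours after pregnant mare serum gonadotropin (PMSG) together with melatonin. The 4 control samples were collected 24 hours after PMSG together with normal saline, so both groups carry the gonadotropin treatment. PMSG is a hormone preparation whose targets include the follicle-stimulating hormone receptor. The sources used here do not give the melatonin dose. The labels also do not say whether a replicate is 1 animal or a pool, so p-values measure only sample-to-sample spread, part of which may be technical. The comparison asks which transcripts differ when melatonin is added to the gonadotropin, in a study whose title places melatonin downstream of follicle-stimulating hormone and names nutrient accumulation in oocytes.

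Glycolysis splits glucose into pyruvate and yields ATP and NADH. Lactate dehydrogenase turns pyruvate into lactate and back, and monocarboxylate transporters carry both across membranes. The pentose phosphate pathway draws on glucose 6-phosphate to make NADPH and ribose. In the ovarian follicle, granulosa and cumulus cells take up much of the glucose and pass pyruvate and lactate to the oocyte, which uses glucose poorly by itself. Follicle-stimulating hormone is known to stimulate glucose use in granulosa cells.

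The libraries were of similar depth, with 18553188 to 23649204 fragments assigned to genes in melatonin libraries and 17451111 to 22034312 in control libraries, as implied by the FPKM values and exon lengths. FPKM is relative to the other transcripts of a library, so it shows no change in total RNA. Because whole follicles were sampled, fewer cells of a type and less RNA per cell cannot be told apart. Defining markers of the expected cells were present. Inha, a granulosa cell hormone subunit, was at 5445 ± 309 FPKM in melatonin libraries and 6597 ± 641 FPKM in control libraries, and the oocyte growth factor gene Gdf9 was at 97.9 ± 14.3 FPKM with melatonin and 107 ± 19.1 FPKM in controls (SD, n = 4 each). The first principal component of all tested genes, which held 26.5% of the variance, separated the groups. Melatonin libraries lay at 5.81 to 17.4 and control libraries at -29.9 to -0.486. Control replicate 3 lay at the control end, and also had the highest summed markers of leukocytes (105 FPKM) and of red blood cells (1545 FPKM) of the 8 libraries.

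Most members had lower mean levels with melatonin, but no member passed the test. Over all 14738 genes, limma on log2(FPKM + 1) with Benjamini-Hochberg adjustment found 0 genes at an adjusted p under 0.05 (0%), and 2821 genes (19.1%) at an unadjusted p under 0.05, 1436 of them lower and 1385 higher with melatonin. The split was different in limma-voom on recovered fragments, with 1022 lower and 1648 higher, where 16 members were lower and 1 was higher. That fit also held fewer genes, the 13748 tested genes with whole fragments in all 8 libraries, and not Pgam1. Among the 30 tested entries the log2 fold change, melatonin minus control, was negative for 27 and positive for 3, against 52.5% negative among all tested genes. At an unadjusted p under 0.05, 18 members were lower with melatonin (60%), where the background over all tested genes was 9.74%, and 1 member was higher, where the background was 9.4%. The 4 melatonin values lay below all 4 control values in 9 members (30%, background 5.94%) and above them in 0 (background 5.79%). The 2 Aldoa entries are counted separately here: both are among the 18, and the second is among the 9. The median log2 fold change was -0.28 over the members and -0.01 over all tested genes. The members were chosen with earlier results of these data known, so these contrasts with all tested genes are a description and not a test. The smallest adjusted p of any member was 0.120 (limma), for Taldo1 and Pgk1.

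Highly expressed genes leaned the same way as a whole: at a mean level of 5 FPKM or more there were 8855 genes, of which 57.9% had negative log2 fold changes. At an unadjusted p under 0.05, 22.7% of them differed, 13.7% being lower and 8.91% higher with melatonin, and 8.5% lay wholly below and 5.29% wholly above the controls. Of the 27 members in that class 24 were negative, 16 were lower and 1 was higher at an unadjusted p under 0.05, 8 lay wholly below the controls and 0 wholly above. Single libraries carried some of these counts. The count of members wholly below the controls was 9 with all libraries and 16 when either control replicate 4 or melatonin replicate 3 was left out. Fewer values then have to be separated. The share of all tested genes wholly below was not counted with a library left out, so the count of 16 has no background. The count of members lower at an unadjusted p under 0.05 ranged between 13 and 20 when 1 library was left out in turn. Over all tested genes that count ranged between 961 and 1631. Across the 30 members, control replicate 3 was the highest of all 8 libraries in 19, melatonin replicate 4 was the lowest in 12 and melatonin replicate 1 the lowest in 8.

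**Figure D1:**
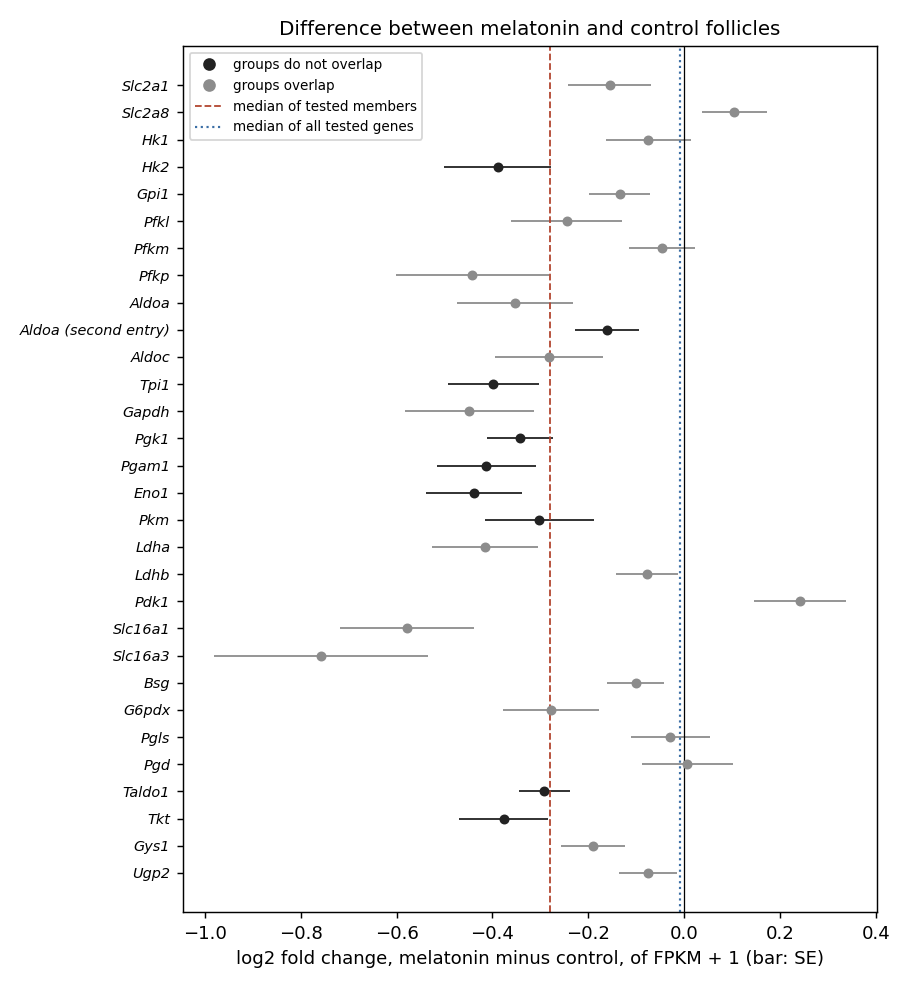
Log2 fold change (melatonin minus control, on the log2(FPKM + 1) scale) of each tested member, with bars for the standard error of the limma fit, ordered by metabolic step; black points are members whose groups do not overlap, and the dashed and dotted lines are the medians of members and of all tested genes. Of the 30 points 27 lie left of 0, and Slc16a3 at -0.76 and Slc16a1 at -0.58 lie farthest from it.

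Many glycolytic genes are known targets of hypoxia-inducible factors, whose binding core is ACGTG or GCGTG, so the promoter windows of the members were searched for these letters on both strands. RefSeq windows (GRCm38.p6, which is the mm10 build, 300 bases around a transcript start, most of them upstream) were found for 29 of the 32 symbols, 43 windows in all. ACGTG was present in 39.5% of member windows, against 19.6% of the 32851 windows of all genes, and GCGTG in 58.1%, against 32.4%. Either core was present in 32 of the 43 (74.4%), against 43.8%. The E-box CACGTG, which contains ACGTG on both of its strands, was in 6.98% of member windows and 7.15% of all windows, and the GC box GGGCGG was in 60.5% and 35.7%. A match is a description of the letters, not a site. The windows of all genes were not limited to genes expressed in follicles, nor matched to the members in base composition. The GC box, which is not a hypoxia core, was also more frequent in member windows. Regulation by hypoxia-inducible factors was not tested. Hif1a itself, the regulated subunit of the factor, averaged 27.0 ± 2.49 FPKM in melatonin libraries and 34.1 ± 6.36 FPKM in control libraries (limma log2 fold change -0.31 ± 0.13 SE, adjusted p = 0.239), and the groups overlapped. The windows below, with core matches on either strand in capitals, are shown because they belong to the enzymes and transporters with some of the lowest adjusted p-values or the largest differences (Pgk1, Ldha, Slc16a3, Tpi1) and to the 1 member that was higher with melatonin at an unadjusted p under 0.05 (Pdk1). Where a gene has several windows the one at the lowest coordinate is shown.
Pgk1, chrX:106186850-106187149, plus strand: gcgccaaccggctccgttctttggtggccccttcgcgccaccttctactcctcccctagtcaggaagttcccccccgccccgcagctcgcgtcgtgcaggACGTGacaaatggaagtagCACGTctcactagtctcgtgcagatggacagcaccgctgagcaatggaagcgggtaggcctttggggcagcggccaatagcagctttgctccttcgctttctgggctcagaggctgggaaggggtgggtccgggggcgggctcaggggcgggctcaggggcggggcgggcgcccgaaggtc
Ldha, chr7:46845554-46845853, plus strand: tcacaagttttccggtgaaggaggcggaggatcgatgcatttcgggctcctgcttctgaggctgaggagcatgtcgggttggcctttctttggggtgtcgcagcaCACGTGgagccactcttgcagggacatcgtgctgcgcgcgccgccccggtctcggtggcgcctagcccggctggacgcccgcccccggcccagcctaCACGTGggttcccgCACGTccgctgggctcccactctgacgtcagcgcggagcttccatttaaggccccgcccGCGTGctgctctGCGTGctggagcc
Slc16a3, chr11:120948817-120949116, plus strand: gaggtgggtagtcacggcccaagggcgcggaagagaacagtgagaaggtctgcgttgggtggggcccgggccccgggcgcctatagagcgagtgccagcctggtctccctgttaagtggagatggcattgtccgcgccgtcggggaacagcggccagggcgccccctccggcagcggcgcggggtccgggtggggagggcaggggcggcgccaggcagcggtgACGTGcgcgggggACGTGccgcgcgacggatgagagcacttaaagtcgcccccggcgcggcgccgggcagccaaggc
Tpi1, chr6:124814109-124814408, minus strand: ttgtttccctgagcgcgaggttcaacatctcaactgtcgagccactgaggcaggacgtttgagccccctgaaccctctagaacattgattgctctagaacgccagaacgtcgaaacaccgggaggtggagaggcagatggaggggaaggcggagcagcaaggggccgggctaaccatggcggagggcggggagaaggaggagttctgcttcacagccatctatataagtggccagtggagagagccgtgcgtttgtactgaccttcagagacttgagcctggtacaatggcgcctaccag
Pdk1, chr2:71872974-71873273, plus strand: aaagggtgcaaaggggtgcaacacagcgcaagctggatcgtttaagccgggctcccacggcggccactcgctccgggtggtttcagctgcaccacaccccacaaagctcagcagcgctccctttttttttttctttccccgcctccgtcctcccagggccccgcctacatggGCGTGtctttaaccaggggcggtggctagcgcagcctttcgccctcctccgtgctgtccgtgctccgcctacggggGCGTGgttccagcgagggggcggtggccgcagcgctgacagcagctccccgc
The Ldha window held 7 core matches, counting each of its E-boxes on both strands, and the Pgk1, Slc16a3 and Pdk1 windows held 2 each. The Tpi1 window held 0.

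Both tested glucose transporters overlapped between the groups. Slc2a1 (GLUT1, the widespread basal transporter, chr4:119108711-119137983, mm10) had 9.68, 10.3, 11.5 and 9.54 FPKM in melatonin libraries, against 11.2, 12.1, 12.996 and 10.01 FPKM in control libraries. The groups overlapped, control replicates 1 and 4 lying among the melatonin values (limma log2 fold change -0.16 ± 0.09 SE, adjusted p = 0.362). Slc2a8 (GLUT8, an intracellular transporter) averaged 6.03 ± 0.530 FPKM in melatonin libraries and 5.53 ± 0.301 FPKM in control libraries (SD, n = 4 each), with adjusted p = 0.430 in limma. Slc2a3 (GLUT3, high affinity) was at 0.215 ± 0.0695 FPKM and 0.306 ± 0.106 FPKM in melatonin and control libraries, a difference of -29.7% that rests on 19 to 71 fragments per library. Slc2a4 (GLUT4, the insulin-regulated transporter) was at 0.689 ± 0.202 FPKM with melatonin and 0.594 ± 0.207 FPKM in controls, and both of these low genes overlapped between the groups.

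Upper glycolysis runs from glucose phosphorylation to triose phosphates, and all 10 of its tested entries had negative log2 fold changes (median -0.26). Of these, 6 were at an unadjusted p under 0.05. Over all tested genes 52.5% were negative and 9.74% were lower at that threshold. Hk2 (the inducible hexokinase, chr6:82725025-82774454) had 2.84, 3.30, 3.07 and 3.34 FPKM in melatonin libraries, against 4.63, 4.53, 5.31 and 3.37 FPKM in control libraries. The groups did not overlap, but control replicate 4 was next to the highest melatonin value (limma log2 fold change -0.39 ± 0.11 SE, adjusted p = 0.148, with 4 of 4 melatonin libraries below the controls). Hk1, the constitutive hexokinase, averaged 4.71 ± 0.395 FPKM with melatonin and 5.03 ± 0.679 FPKM in controls, and its sign turned positive without control replicate 3 (log2 fold change 0.0020), which had the highest Hk1 level. Tpi1 (triose phosphate isomerase, chr6:124810586-124814296) had 69.6, 79.2, 87.6 and 67.1 FPKM in melatonin libraries and 97.7, 98.5, 111 and 92.3 FPKM in control libraries. Every melatonin value was below every control value, with melatonin replicate 3 the nearest (limma log2 fold change -0.40 ± 0.09 SE, adjusted p = 0.128).

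Aldoa (the main aldolase, chr7:126795234-126800751) had 115, 129.6, 145 and 112 FPKM in melatonin libraries, against 167, 146, 193 and 138 FPKM in control libraries. Melatonin replicate 3 exceeded control replicate 4, so the groups overlapped (limma log2 fold change -0.35 ± 0.12 SE, adjusted p = 0.184). The second Aldoa entry (chr7:126800790-126809108, just upstream of the main one) was much lower, at 5.95 ± 0.478 FPKM with melatonin and 6.76 ± 0.386 FPKM in controls, with no overlap and adjusted p = 0.243 in limma. Aldoc, an aldolase best known from brain, was at 1.80 ± 0.411 FPKM in melatonin libraries and 2.38 ± 0.198 FPKM in control libraries. The phosphofructokinases catalyse the committed step. Pfkp (platelet type) had 4.64, 7.16, 3.64 and 5.45 FPKM with melatonin and 6.39, 7.03, 8.06 and 7.75 FPKM in controls, so only melatonin replicate 2 lay within the control range (limma log2 fold change -0.44 ± 0.16 SE, adjusted p = 0.199). Pfkp shares 5.58% of its exon bases with Pitrm1 on the opposite strand, and Pitrm1 averaged 35.0 FPKM. Whether counting used strand is not known here, so reads there cannot be assigned to 1 of the genes, and the Pfkp values are uncertain. Pfkl (liver type) averaged 21.0 ± 2.33 FPKM with melatonin and 25.2 ± 3.88 FPKM in controls (limma adjusted p = 0.291). Pfkm (muscle type) averaged 16.0 ± 0.469 FPKM with melatonin and 16.6 ± 1.62 FPKM in controls, and Gpi1 (glucose phosphate isomerase) 26.1 ± 1.60 FPKM with melatonin and 28.8 ± 2.08 FPKM in controls, both overlapping.

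Lower glycolysis, from glyceraldehyde phosphate to pyruvate, stood at the lower end of the members, with a median log2 fold change of -0.41. All 5 tested genes were negative (52.5% of all tested genes were) and at an unadjusted p under 0.05 (background 9.74% lower). In 4 of them all melatonin values lay below all control values (background 5.94%). The other is Gapdh, whose values are uncertain, as described below. Pgk1 (phosphoglycerate kinase, the first ATP-forming step, chrX:106187100-106203699) had 56.7, 67.1, 68.0 and 59.6 FPKM in melatonin libraries, against 83.6, 75.9, 81.4 and 78.5 FPKM in control libraries. The highest melatonin library, replicate 3, lay below the lowest control library, replicate 2 (limma log2 fold change -0.34 ± 0.07 SE, adjusted p = 0.120). Eno1 (enolase, chr4:150236721-150248879) had 38.1, 46.7, 51.9 and 40.3 FPKM with melatonin and 60.4, 59.0, 65.6 and 55.03 FPKM in controls. Its groups were also apart, replicate 3 of melatonin being the nearest to the controls (limma log2 fold change -0.44 ± 0.10 SE, adjusted p = 0.122).

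Pgam1 (phosphoglycerate mutase, chr19:41911923-41918660) had 62.9, 67.2, 76.7 and 57.7 FPKM in melatonin libraries and 87.3, 87.4, 101 and 77.6 FPKM in control libraries. Here melatonin replicate 3 and control replicate 4 nearly met (limma log2 fold change -0.41 ± 0.10 SE, adjusted p = 0.138). Pkm (pyruvate kinase, the last ATP-forming step, chr9:59656368-59679375) had 84.0, 82.3, 93.4 and 62.4 FPKM with melatonin, against 104, 93.6, 102 and 94.7 FPKM in controls. Melatonin replicate 4 stood far below the others, while melatonin replicate 3 almost reached control replicate 2 (limma log2 fold change -0.30 ± 0.11 SE, adjusted p = 0.214). The Pkm gene makes 2 known splice forms that gene-level values do not separate. Eno2, the neuronal enolase, was near the detection filter at 1.10 ± 0.230 FPKM in melatonin libraries and 0.807 ± 0.330 FPKM in control libraries.

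**Figure D2:**
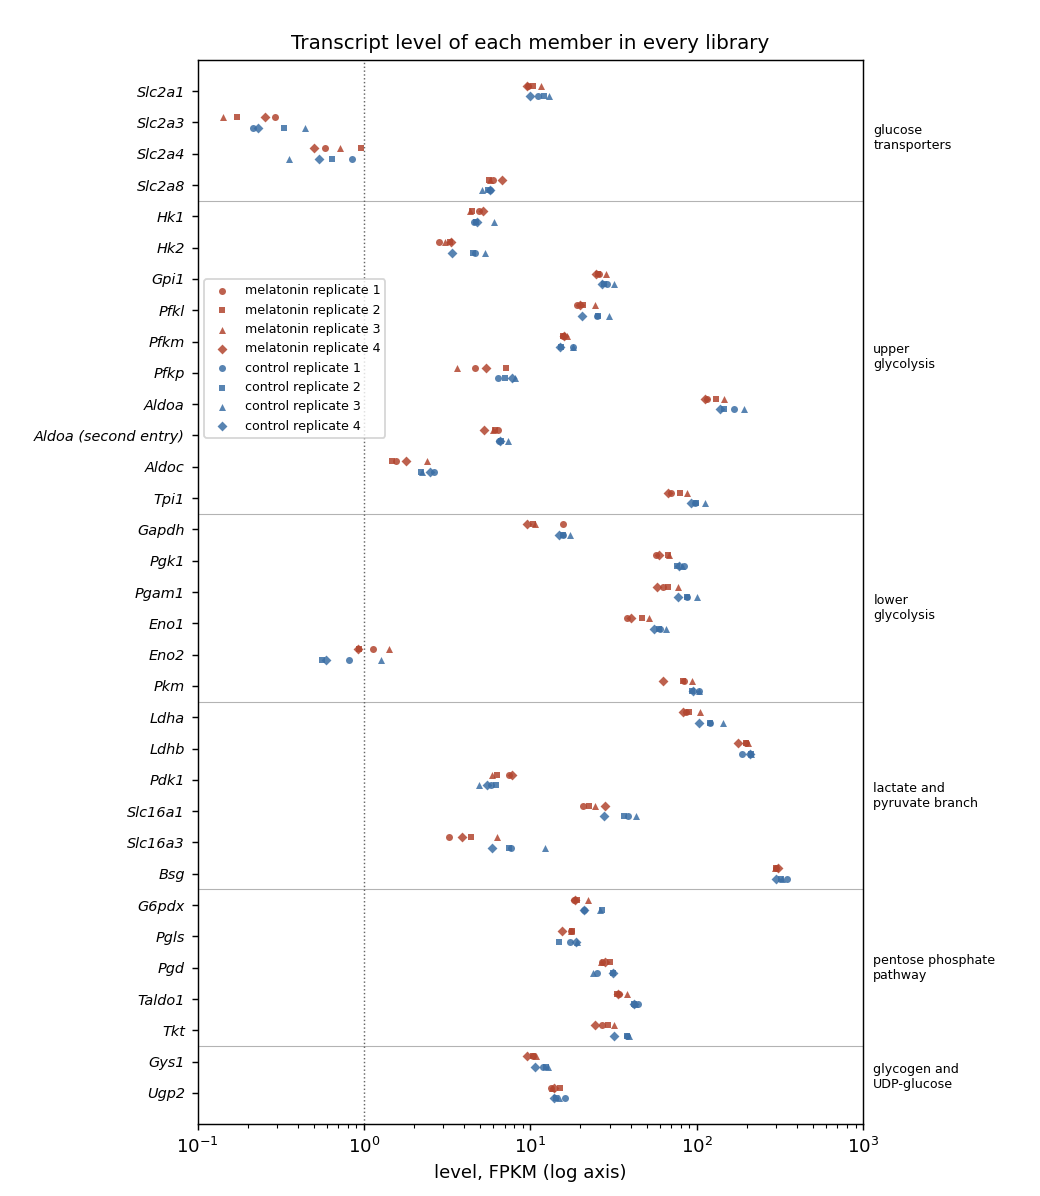
FPKM (log axis) of each of the 33 entries in every library, melatonin above control within each row; the dotted line marks the filter at 1 FPKM. Bsg and Ldhb are at the top of the scale and Slc2a3 at the bottom, and all 4 melatonin points lie left of all 4 control points in 9 of the tested entries.

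Several of these enzymes have near-identical processed pseudogenes, so a read may be counted for a copy. Copies were taken as other genes with at least 95% identity over at least 200 bases of the member's transcript. Gapdh (glyceraldehyde phosphate dehydrogenase, chr6:125161715-125166467), usually one of the most abundant mRNAs, was listed at only 15.7, 10.3, 10.7 and 9.52 FPKM in melatonin libraries and 15.8, 15.6, 17.2 and 14.9 FPKM in control libraries (limma log2 fold change -0.45 ± 0.13 SE, adjusted p = 0.158). Melatonin replicate 1 was within the control range and the other melatonin libraries were below it. The pseudogene Gm13394, 99.9% identical over 1000 bases, was listed at a mean of 121 FPKM with melatonin and 166 FPKM in controls, and 73.4% of the fragments summed over Gapdh and its copies were on copies. Gapdh and its copies together had 196, 142, 241 and 146 fragments per 1000000 in melatonin libraries, against 139, 229.6, 317 and 299 in control libraries. In that sum control replicate 1 was the lowest of all 8 libraries, and the groups overlapped. The deposited Gapdh values are therefore uncertain as a level.

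For Eno1, 30.1% of the fragments over the gene and its copies were on copies, chiefly the pseudogene Gm4735. The sum was 292, 359, 404 and 315 fragments per 1000000 with melatonin and 461, 456, 504 and 420.1 in controls. These sums did not overlap, and their log2 difference was -0.43, set against -0.44 for Eno1 alone in the limma fit. Eno1b, another near-identical gene that is annotated as protein-coding, averaged 16.0 FPKM with melatonin and 29.8 FPKM in controls and was not in the sum, because its FPKM values did not resolve into whole fragments. Copies held 0.776% of the summed fragments for Pkm, 1.10% for Tpi1 and 0.969% for Pgk1, and the sums of each did not overlap between the groups, with log2 differences of -0.30, -0.40 and -0.35. Pkm also shares 15.3% of its exon bases with AC160637.1 on the same strand, a gene at a mean of 5.34 FPKM. The Pgam1 copy Pgam1-ps2 was at 1.698 FPKM with melatonin and 2.44 FPKM in controls.

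**Figure D3:**
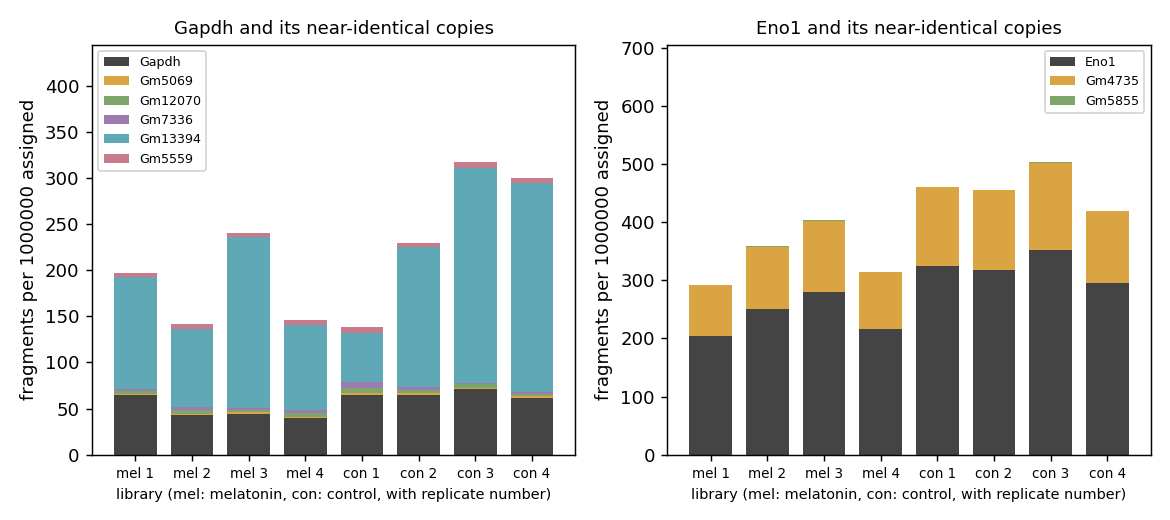
Fragments per 1000000 assigned fragments of Gapdh and of Eno1 with their near-identical copies, stacked by gene, in each library. Copies make up most of each Gapdh bar and the order of the Gapdh bars follows Gm13394, while the Eno1 bars of all 4 melatonin libraries are shorter than those of all 4 control libraries.

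In the lactate and pyruvate branch 5 of 6 genes were negative (background 52.5%), and the monocarboxylate transporters showed the largest fold changes of all members. Slc16a3 (MCT4, a lactate exporter of glycolytic cells, chr11:120948480-120960868) had 3.22, 4.39, 6.27 and 3.90 FPKM in melatonin libraries, against 7.61, 7.41, 12.3 and 5.88 FPKM in control libraries. Melatonin replicate 3 exceeded control replicate 4, so the groups overlapped, and control replicate 3 was well above the rest (limma log2 fold change -0.76 ± 0.22 SE, adjusted p = 0.151). Slc16a1 (MCT1, which carries lactate and pyruvate in either direction, chr3:104638668-104658462) had 20.7, 22.5, 24.5 and 28.2 FPKM with melatonin and 38.7, 36.7, 43.1 and 27.6 FPKM in controls. Only control replicate 4 lay within the melatonin range (limma log2 fold change -0.58 ± 0.14 SE, adjusted p = 0.137). Bsg (basigin, the membrane chaperone of both transporters) was the most highly expressed member, at 301 ± 6.13 FPKM with melatonin and 323 ± 20.4 FPKM in controls, with adjusted p = 0.385 in limma.

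Ldha (lactate dehydrogenase A, chr7:46841475-46855627) had 85.7, 90.0, 105 and 82.4 FPKM in melatonin libraries, against 119, 119.6, 145 and 103 FPKM in control libraries. Melatonin replicate 3 was above control replicate 4, and every other melatonin library was below all controls (limma log2 fold change -0.42 ± 0.11 SE, adjusted p = 0.146). Ldhb, the B subunit, had a higher level than Ldha and differed less, at 194 ± 11.3 FPKM with melatonin and 205 ± 11.6 FPKM in controls (limma log2 fold change -0.08 ± 0.06 SE, adjusted p = 0.532). Pdk1 (pyruvate dehydrogenase kinase, which restrains pyruvate dehydrogenase inside mitochondria, chr2:71873224-71903858) had the opposite sign, with 7.40, 6.26, 5.90 and 7.76 FPKM in melatonin libraries and 5.80, 6.23, 4.94 and 5.47 FPKM in control libraries. Control replicate 2 lay above melatonin replicate 3, so the groups overlapped (limma log2 fold change 0.24 ± 0.10 SE, adjusted p = 0.231). Its unadjusted p was no longer under 0.05 when replicate 3 or 4 of the controls, or replicate 1 or 4 of melatonin, was left out, which leaves a count of 0 members higher with melatonin.

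Of the 5 pentose phosphate genes 4 had negative log2 fold changes (background 52.5%), 3 at an unadjusted p under 0.05 (background 9.74% lower). Taldo1 (transaldolase, a non-oxidative enzyme of the pathway, chr7:141392199-141402968) had 33.9, 33.3, 38.1 and 33.4 FPKM in melatonin libraries, against 44.2, 41.9, 42.6 and 41.9 FPKM in control libraries. Melatonin replicate 3 stood above the other melatonin libraries, and the groups did not overlap (limma log2 fold change -0.29 ± 0.05 SE, adjusted p = 0.120). Tkt (transketolase, chr14:30548359-30574720) had 27.0, 29.4, 31.6 and 24.5 FPKM with melatonin and 38.2, 38.2, 39.1 and 31.6 FPKM in controls. The highest melatonin library and control replicate 4 were equal to 3 digits and still in that order (limma log2 fold change -0.38 ± 0.09 SE, adjusted p = 0.138).

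Of the oxidative enzymes, G6pdx (glucose 6-phosphate dehydrogenase, the NADPH-forming entry step, chrX:74409483-74429194) had 18.2, 18.99, 22.1 and 18.5 FPKM in melatonin libraries and 21.1, 27.1, 26.1 and 21.1 FPKM in control libraries. Only melatonin replicate 3 reached the control range (limma log2 fold change -0.28 ± 0.10 SE, adjusted p = 0.199). G6pdx shares 13.6% of its exon bases with Ikbkg on the opposite strand, which averaged 6.49 FPKM. Pgd (phosphogluconate dehydrogenase, the other NADPH-forming step) averaged 27.9 ± 1.60 FPKM with melatonin and 27.9 ± 3.93 FPKM in controls, with a log2 fold change of 0.01 ± 0.10 SE (limma adjusted p = 0.978). Pgls (the lactonase between them) averaged 17.1 ± 1.11 FPKM with melatonin and 17.5 ± 1.88 FPKM in controls, and shares 20.6% of its exon bases with Fam129c.

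Toward glycogen, Gys1 (glycogen synthase of muscle type) averaged 10.3 ± 0.542 FPKM in melatonin libraries and 11.9 ± 0.972 FPKM in control libraries (limma log2 fold change -0.19 ± 0.07 SE, adjusted p = 0.190). Melatonin replicate 3, at 10.9 FPKM, was above control replicate 4, at 10.6 FPKM, and 6.47% of the Gys1 exon bases overlap Ruvbl2 on the opposite strand. Ugp2 (which makes UDP-glucose) averaged 13.9 ± 0.818 FPKM with melatonin and 14.7 ± 0.962 FPKM in controls, and its groups overlapped.

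Summed over steps, the levels of lower glycolysis were 230.5 to 302 FPKM in melatonin libraries and 321 to 369 FPKM in control libraries, and those of the pentose phosphate pathway 120 to 136 FPKM with melatonin and 145 to 153 FPKM in controls. The lactate and pyruvate branch summed to 609 to 638 FPKM with melatonin and 649 to 742 FPKM in controls. None of these sums overlapped, whereas those of upper glycolysis met narrowly, at 260 to 322 FPKM with melatonin and 318 to 413 FPKM in controls. This separation depends in part on scaling, since the summed FPKM of all genes was itself 278096 to 284603 in melatonin libraries and 287731 to 302290 in control libraries. As a percent of that total, chosen as a scale after seeing the data, lower glycolysis did not overlap (0.0817% to 0.108% with melatonin, 0.112% to 0.125% in controls). On the same scale the lactate and pyruvate branch (0.216% to 0.229% with melatonin, 0.225% to 0.253% in controls) and the pentose phosphate pathway (0.0425% to 0.0488% with melatonin, 0.0483% to 0.0532% in controls) overlapped. All members together made up 0.447% to 0.516% of the summed FPKM of all genes in melatonin libraries and 0.512% to 0.586% in control libraries. The summed markers of the follicle's own cells are given beside these sums. The 11 granulosa markers summed to 6582 to 7661 FPKM with melatonin and 7842 to 10553 FPKM in controls, without overlap. Most of that sum was Inha, at means of 5445 FPKM with melatonin and 6597 FPKM in controls. The marker sums were not rescaled to the summed FPKM of all genes, so their separation may also depend on scaling. Of the 11 granulosa markers 10 were negative, with a median log2 fold change of -0.31, and 5 were lower at an unadjusted p under 0.05. The 11 oocyte markers summed to 316 to 409 FPKM with melatonin and 331 to 513 FPKM in controls. Of the 10 tested, 9 were negative, with a median log2 fold change of -0.11, and 0 were lower at an unadjusted p under 0.05. The 9 theca markers summed to 629 to 1195 FPKM with melatonin and 1016 to 1384 FPKM in controls. Most of the theca sum was Hsd3b1, at means of 834 FPKM with melatonin and 1038 FPKM in controls. Of the 8 tested theca markers 7 were negative, with a median log2 fold change of -0.47, and 4 were lower at an unadjusted p under 0.05. The 6 epithelial markers summed to 43.4 to 51.3 FPKM with melatonin and 52.9 to 81.4 FPKM in controls, without overlap. Of these, 6 of 6 were negative, with a median of -0.40, and 3 were lower at an unadjusted p under 0.05. For all of these marker counts, the shares over all tested genes were 52.5% negative and 9.74% lower. Stroma markers summed to 28.5 to 56.2 FPKM and 44.4 to 94.3 FPKM in melatonin and control libraries, leukocyte markers to 19.6 to 33.4 FPKM and 21.8 to 105 FPKM, and red blood cell markers to 125 to 479 FPKM and 66.5 to 1545 FPKM. Endothelial markers summed to 5.21 to 7.84 FPKM with melatonin and 6.63 to 9.997 FPKM in controls, and smooth muscle markers to 35.6 to 57.3 FPKM and 34.4 to 58.0 FPKM. Most tested markers of these lists were also negative: 7 of 7 for stroma (median -0.30), 5 of 5 for leukocytes (-0.37) and 4 of 5 for red blood cells (-0.40). The same held for 3 of 3 endothelial (-0.14) and 2 of 3 smooth muscle markers (-0.16). At an unadjusted p under 0.05, 1 endothelial marker was lower, and 0 of the stroma, leukocyte, red blood cell and smooth muscle markers were. No marker was at 0 in all libraries, and Cd3e of T cells was under 0.1 FPKM. The part of these cell types in the member values was not tested.

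**Figure D4:**
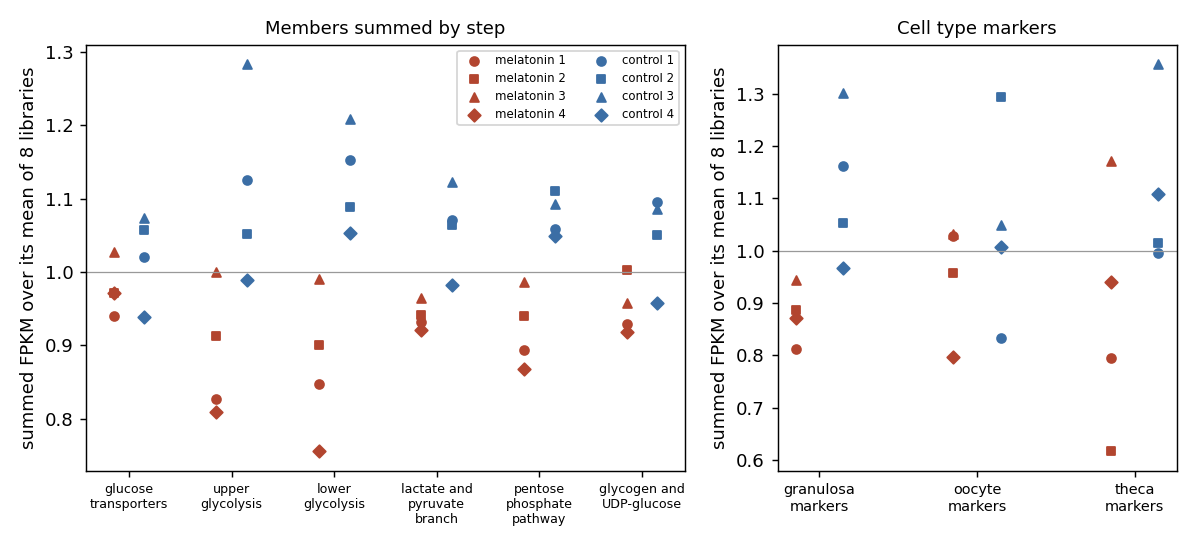
Summed FPKM of the members of each metabolic step (left) and of 3 marker lists (right) in each library, divided by its mean over the 8 libraries. Lower glycolysis, the lactate and pyruvate branch, the pentose phosphate pathway and the granulosa markers separate the groups on the FPKM scale, and control replicate 3 is the highest library in upper and lower glycolysis.

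A share of a gene within a set of related isozymes or transporters does not depend on the scaling of a library, but it depends on the genes summed. The sums here hold only the members, and wider sums with the family's other genes were added after seeing the data. Ldha made up 30.1%, 31.2%, 34.0% and 31.7% of the summed Ldha and Ldhb FPKM in melatonin libraries, against 38.9%, 36.1%, 40.5% and 32.9% in control libraries. Melatonin replicate 3 was above control replicate 4, and the difference of means was -5.37 percentage points (two-sided exact permutation p = 0.0571, adjusted p = 0.171 over 9 shares). Hk1 made up 60.0 ± 2.64% of the hexokinase sum with melatonin and 53.2 ± 3.82% in controls (exact p = 0.0857, adjusted p = 0.193). Pfkm made up 38.0 ± 1.73% of the phosphofructokinase sum with melatonin and 33.9 ± 2.04% in controls (exact p = 0.0571, adjusted p = 0.171). Eno1 made up 97.6 ± 0.420% of the sum of Eno1 and Eno2 with melatonin and 98.7 ± 0.429% in controls. This was the only share of the 9 without overlap, and its exact permutation p of 0.0286 is the smallest that 4 against 4 samples allow (adjusted p = 0.171), while Eno2 lay near the filter. With Eno3 and Eno4 in the sum, the Eno1 share was 78.4 ± 2.42% with melatonin and 85.7 ± 1.36% in controls (exact permutation p = 0.0286, adjusted p = 0.171), again without overlap. Slc2a1 held 59.6 ± 3.31% of the glucose transporter sum with melatonin and 64.1 ± 3.58% in controls (exact p = 0.114), and Slc16a1 84.4 ± 3.64% of the sum of Slc16a1 and Slc16a3 with melatonin and 81.8 ± 2.66% in controls (exact p = 0.229). With Slc16a4, Slc16a7, Slc16a8 and Slc16a11 in the sum, the direction of the Slc16a1 share turned, to 69.4 ± 3.68% with melatonin and 73.3 ± 2.94% in controls (exact p = 0.171). The shares of Pfkl (49.6 ± 3.24% with melatonin, 51.1 ± 2.90% in controls), Pfkp (12.4 ± 3.43% with melatonin, 14.99 ± 2.16% in controls) and Aldoa (98.6 ± 0.233% with melatonin, 98.5 ± 0.256% in controls) gave exact p-values of 0.486, 0.286 and 0.743. No share passed an adjusted p of 0.05.

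**Figure D5:**
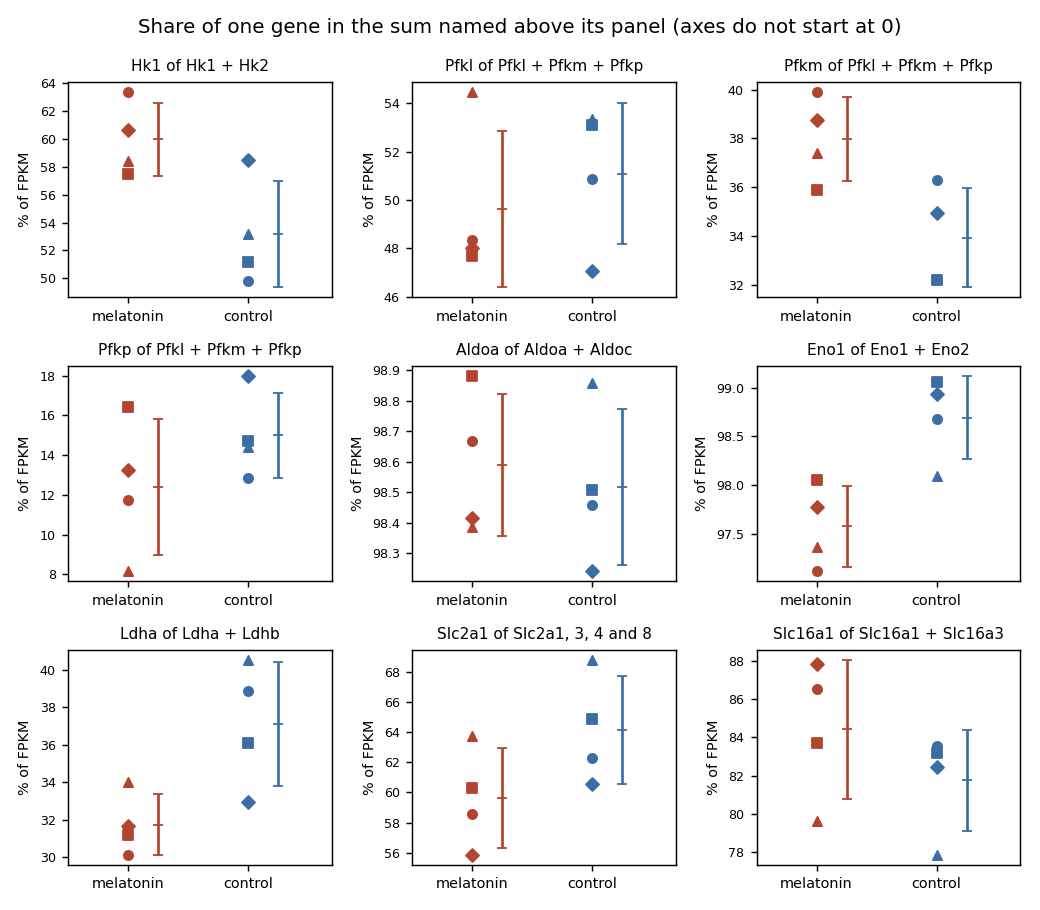
Share (percent) of 1 gene in the summed FPKM of the genes in the panel title in each library, melatonin left of control, with the mean and SD of each group. Ldha makes up a mean of 31.7% with melatonin and 37.1% in controls of the lactate dehydrogenase sum, and the groups overlap in every panel except Eno1.

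The wider set of 135 genes of sugar metabolism outside the members gave smaller shares. Of these, 133 were in the table and 101 were tested; 70 log2 fold changes were negative, with a median of -0.06. At an unadjusted p under 0.05, 17 were lower with melatonin (16.8%, background 9.74%) and 8 were higher (7.92%, background 9.4%), and 0 passed the adjusted threshold in limma. The groups did not overlap in 6 genes below and 6 above the controls (5.94% each), close to the backgrounds of 5.94% and 5.79%. With limma-voom on recovered fragments, which holds only genes with whole fragments, the counts at an unadjusted p under 0.05 were 11 lower and 12 higher. The count of 17 was 10 without control replicate 3 and 9 without melatonin replicate 1. The smallest p-values belonged to genes in both directions. Gapdhs (the sperm-type glyceraldehyde phosphate dehydrogenase) had 7.41, 7.01, 6.53 and 7.23 FPKM in melatonin libraries, against 4.72, 5.66, 5.52 and 5.16 FPKM in control libraries. It lay higher in all 4 melatonin libraries, opposite to Gapdh (limma log2 fold change 0.36 ± 0.07 SE, adjusted p = 0.120), and 10.1% of its exon bases overlap Tmem147os. Eno3, the muscle enolase, averaged 10.5 ± 0.843 FPKM with melatonin and 8.57 ± 0.726 FPKM in controls, again without overlap and opposite to Eno1 (adjusted p = 0.148).

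Slc16a4 (MCT5, an orphan member of the monocarboxylate transporter family) had 3.76, 3.17, 3.35 and 3.50 FPKM in melatonin libraries and 2.18, 2.02, 2.88 and 1.81 FPKM in control libraries. All melatonin values were above all control values, opposite in sign to Slc16a1 and Slc16a3 (limma log2 fold change 0.47 ± 0.11 SE, adjusted p = 0.121). Got1 (cytosolic aspartate aminotransferase of the malate shuttle) averaged 20.3 ± 1.92 FPKM with melatonin and 26.04 ± 1.61 FPKM in controls, without overlap (adjusted p = 0.121). Pgm2 (a phosphoglucomutase) averaged 11.7 ± 0.594 FPKM with melatonin and 15.7 ± 2.10 FPKM in controls (adjusted p = 0.127), with 13.6% of its exon bases shared with Itgb3bp, and H6pd (the glucose 6-phosphate dehydrogenase of the endoplasmic reticulum) 9.28 ± 0.680 FPKM with melatonin and 11.05 ± 0.696 FPKM in controls (adjusted p = 0.148). Galk1 (galactokinase) averaged 43.8 ± 3.07 FPKM with melatonin and 51.1 ± 2.53 FPKM in controls, and Ogt (which attaches the hexosamine product to proteins) 146 ± 10.8 FPKM with melatonin and 115 ± 13.3 FPKM in controls (limma adjusted p = 0.148 and 0.147).

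Among regulators, Pfkfb3 (which makes the activator of phosphofructokinase) averaged 4.99 ± 0.343 FPKM in melatonin libraries and 6.17 ± 1.17 FPKM in control libraries (limma adjusted p = 0.265), and Pfkfb4, a related enzyme, 1.86 ± 0.206 FPKM with melatonin and 2.25 ± 0.267 FPKM in controls. Txnip, an inhibitor of glucose uptake, averaged 118 ± 6.97 FPKM with melatonin and 135 ± 21.3 FPKM in controls, and Tigar, which diverts sugar from glycolysis, 4.98 ± 0.557 FPKM with melatonin and 5.34 ± 0.264 FPKM in controls. The mitochondrial pyruvate carrier genes Mpc1 (3.59 ± 0.428 FPKM with melatonin, 3.22 ± 0.433 FPKM in controls) and Mpc2 (4.02 ± 0.266 FPKM with melatonin, 4.17 ± 0.477 FPKM in controls) and the hexosamine entry enzyme Gfpt1 (15.3 ± 0.801 FPKM with melatonin, 15.9 ± 1.2004 FPKM in controls) overlapped between the groups. No gene of this panel passed the adjusted threshold.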

How the data were processed

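Follicle RNA of 4 melatonin and 4 control samples was profiled by sequencing (NEBNext Ultra library kit, per the labels' protocols). Per the submitters' processing notes the authors used HISAT2 2.0.5 and the mm10 build. How fragments were counted, with which annotation and whether by strand, is not given in the sources used here. Per the file headers, the deposited table holds FPKM per gene, and 0 cells differed between the series table and the sample files. Exon lengths of GENCODE M21 (54409 of 55157 identifiers matched) turned 98.7% to 98.9% of values of up to 30 fragments per library into whole fragments within 0.05, from which depth was estimated; intervals from it would cover counting error only. Coordinates are mm10.

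Genes averaging 1 FPKM or more over the libraries were tested with limma 3.58.1 (R 4.3.3, empirical Bayes with trend, group as the only term) on log2(FPKM + 1), a scale that understates the change of low genes, with Benjamini-Hochberg adjustment over 14738 genes and a threshold of 0.05. The fit was tested on simulated data. Shares were tested by two-sided exact permutation over 70 assignments. Copies were searched with blastn 2.17.0. The text names all 32 members, the 8 other sugar metabolism genes with the smallest p, and a panel of 8 regulators. Members and lists were chosen with earlier results of these data known. Alternatives changed the pseudocount, filter, scaling, GC and length correction, sample weights, replicate block and libraries, and used limma-voom on recovered fragments.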

Additional observations from a re-analysis of the deposited data

Results flagged for a closer look

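In 6 of 126 groups of 4 values, 1 library stood apart from the others of its group by more than Dixon's 95% critical value; chance gives this in about 5% of groups. Hk1 was at 6.04 FPKM in control replicate 3, where the other controls were at 4.59 to 4.75 FPKM. Ldhb was at 188 FPKM in control replicate 1, where the others were at 209 to 212 FPKM. Pgls was at 15.4 FPKM in melatonin replicate 4, where the others were at 17.5 to 17.9 FPKM. Taldo1 was at 38.1 FPKM in melatonin replicate 3, where the others were at 33.3 to 33.9 FPKM. Tkt was at 31.6 FPKM in control replicate 4, where the others were at 38.2 to 39.1 FPKM. The share of Pfkl in the phosphofructokinase sum was 54.5% in melatonin replicate 3, where the other melatonin libraries were at 47.7% to 48.3%.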

How the results depend on the processing

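Of the 30 tested members, 24 kept their sign in all settings of the fit, and an adjusted p under 0.05 was reached by a member in 0 of them. With the GC and length correction and the replicate block together, 1 gene of all passed the adjusted threshold. At an unadjusted p under 0.05, 19 members were then lower and 2 higher, against 1189 and 1258 of all genes. In that setting 5 members lay wholly below and 1 wholly above the controls. The GC and length correction alone gave the same 5 and 1. Shares of all tested genes wholly below or above were counted only at the filters of 1 and 5 FPKM with all libraries. Such member counts in the other settings therefore have no background. Limma-voom on recovered fragments called 0 genes, left 5 members wholly below, and gave 11 of the other sugar genes lower and 12 higher. It held only genes with whole fragments, so Pgam1, which was wholly below in the main fit, was not in it. The wider family sums, also added after seeing the data, turned the difference in the Slc16a1 share to -3.90 percentage points. Without a filter 1 gene passed. At a filter of 5 FPKM, 789 genes in all and 5 of the other sugar genes were higher. Without both control replicate 3 and melatonin replicate 3, chosen after seeing the data, 16 members lay wholly below, 1 wholly above, and 11 of the other sugar genes were lower. The sums with near-identical copies were likewise added after seeing the data.

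Leaving out 1 library at a time gave 0 to 1 genes past the adjusted threshold (1 without control replicate 1), 961 to 1631 genes lower and 962 to 1636 higher at an unadjusted p under 0.05. For the members the ranges were 26 to 28 negative, 13 to 20 lower, 0 to 1 higher, and medians of -0.33 to -0.24. Wholly below the controls lay 9 to 16 members and wholly above 0 to 1, counts that have no background here. For the other sugar genes they were 9 to 18 lower and 7 to 11 higher. Share differences ranged, in percentage points, over 5.69 to 8.60 (Hk1), -3.08 to -0.72 (Pfkl), 3.43 to 4.86 (Pfkm), -3.94 to -1.19 (Pfkp), -0.025 to 0.19 (Aldoa), -1.32 to -0.97 (Eno1), -6.76 to -4.22 (Ldha), -5.89 to -2.96 (Slc2a1) and 1.36 to 4.27 (Slc16a1). The Aldoa share reversed to -0.025 when melatonin replicate 2 was omitted and to -0.019 when control replicate 4 was.

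Signs that reversed were those of log2 fold changes near 0; the cause was not tested. Hk1 was at 0.0020 without control replicate 3 and 0.036 without both replicates 3. Pfkm was at 0.013 with the GC and length correction, with or without the block. Under quantile normalization Ldhb was at 0.0096, Bsg at 0.0085 and Pgls at 0.0026. Pgls was at 0.044 with the GC and length correction, with or without the block, 0.019 with array weights, and 0.010, 0.0050 and 0.016 without control replicate 3, control replicate 4 and melatonin replicate 4. Pgd was at -0.0062 with array weights, -0.043 without both replicates 3, and -0.038, -0.062 and -0.030 without control replicate 1, control replicate 3 and melatonin replicate 2. Mpc2 was at 0.0098 without both replicates 3 and 0.0045 without control replicate 3, and Gfpt1 at 0.0027 without control replicate 1. Over all settings that leave out libraries the ranges were -0.11 to 0.036 (Hk1), -0.099 to 0.016 (Pgls), -0.062 to 0.065 (Pgd), -0.10 to 0.0098 (Mpc2) and -0.091 to 0.0027 (Gfpt1).

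The labels do not say whether replicate numbers pair the samples. Deviations from the group means of same-numbered libraries correlated at 0.00074, -0.10, 0.15 and 0.038. The value of 0.15, for both replicates 3, was the highest of any pair, but not every library correlated best with its own number. Such correlations cannot exclude a shared batch or day. With the replicate block, 27 members were negative, 19 were lower and 1 was higher at an unadjusted p under 0.05, and 0 genes passed the adjusted threshold. Depth limits Slc2a3 and Slc2a4, which rest on under 100 fragments per library.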

Other observations

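The other sugar genes are given by list, as counts of tested genes with negative log2 fold changes; differences between the lists were not tested. Counts of lower and higher genes refer to the unadjusted threshold of 0.05 in limma. Over all tested genes 52.5% were negative, 9.74% lower and 9.4% higher. The enzymes of fructose, galactose, mannose and polyol metabolism had 13 of 14 negative log2 fold changes, with a median of -0.13, and 3 lower at an unadjusted p under 0.05, where the background over all tested genes was 9.74%. The glycerol phosphate and malate shuttles, which carry NADH equivalents into mitochondria, had 6 of 8 negative, a median of -0.16 and 3 lower. Genes of glycogen and UDP-glucose had 11 of 19 negative, a median of -0.01, equal to that of all tested genes, and 1 lower and 1 higher. The further pentose phosphate enzymes had 6 of 8 negative with a median of -0.04, and 2 lower. The other glycolytic enzymes had 9 of 14 with a median of -0.11, and 3 lower and 2 higher. The other genes of lactate and pyruvate transport and pyruvate fate were split, 5 negative and 5 positive, with a median of 0.02, and 2 lower and 2 higher. Transcription factors of glucose metabolism had 8 of 12 negative, with a median of -0.11 and 2 lower. The inhibitors of glycolysis and gluconeogenic enzymes had 5 of 6 negative with a median of -0.12 and 1 lower, and the hexosamine and hyaluronan precursor genes 5 of 7 with a median of -0.04 and 2 higher. Wholly below the controls lay 2 of 8 shuttle genes, 2 of 8 further pentose phosphate genes and 2 of 19 glycogen genes (background 5.94%). Wholly above lay 2 of 14 other glycolytic genes and 2 of 10 lactate and pyruvate genes (background 5.79%). So did 1 of 12 transcription factors and 1 of 3 glucose and fructose transporters. In limma 0 of these genes passed the adjusted threshold.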
